A study of Homo sapiens with 12 samples.

Results

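CPT1 knockdown cells were compared with scramble cells on 6 of the 12 arrays of the series, 3 labelled MDA231-shCPT-1 and 3 labelled MDA231-Scramble, chosen by those labels alone. MDA231 (MDA-MB-231) is an established human line from a triple-negative breast cancer with a mesenchymal form. Both groups carried a lentiviral short hairpin: the knockdown cells one against CPT1, from the pGIPZ collection, whose vector places the hairpin in a microRNA scaffold, and the control cells a scrambled sequence. The labels give CPT1 without an isoform, and they give no hairpin sequence, no time after infection and no statement on whether cells were cloned or pooled. No second CPT1 hairpin is among the arrays, so the knockdown, this hairpin and the line that carries it cannot be told apart. The other arrays, used as references, were 3 of scramble cells with ETX (read here as etomoxir, a drug that blocks CPT1, with no dose or time for the arrays in the labels) and 3 of cells with a hairpin against CPT2 (shCPT-2). Nothing in the labels makes the 3 arrays of a group separate cultures, so the p-values speak for array-to-array spread alone, and that may be technical.

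Long-chain fatty acids enter mitochondria through the carnitine shuttle. CPT1, on the outer membrane, moves the acyl group from coenzyme A to carnitine, the carrier SLC25A20 passes acylcarnitine through the inner membrane, and CPT2 returns the acyl group to coenzyme A for beta-oxidation. CPT1 is the step that malonyl-CoA, the first product of fatty acid synthesis, restrains, and CPT1A, CPT1B and CPT1C are its liver-type, muscle-type and brain-type isoforms. Triple-negative breast cancer cells can draw energy from this pathway, and the series asks what its inhibition does to expression.

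Values are log2 array intensities, and differences are on the same log2 scale, where 1 is a 2-fold change. Genes were compared over 12887 tested genes with limma, a linear model with a shared estimate of variance, and the call threshold was 0.05 on p after Benjamini-Hochberg adjustment. Each count of list members is to be read beside the shares of all tested genes, 23.1% higher and 18% lower in shCPT-1 than in scramble. Array medians lay between 6.24 and 6.27 on the 6 arrays, and a value below that is dim, so that its fold is less certain. All 8 markers of the mesenchymal line that were looked for (VIM, CD44, FN1, ZEB1, CAV1, AXL, KRT8 and KRT18) were above the array median on all 12 arrays. Of 7 markers taken to be low in such a line 4 (PGR, CDH1, KRT5 and KRT14) were below it on all 12 arrays, while ERBB2 and EPCAM, at 2.87 and 2.75 above the median in scramble on average, and ESR1, at 0.71 above it, were not. The 3-prime minus 5-prime signal of the actin control, which moves with RNA integrity or labelling, was 1.73 ± 0.23 (SD, n = 3) in shCPT-1 and 2.07 ± 0.27 in scramble, and with it as a covariate 2639 genes were higher and 1855 lower. The same signal of GAPDH did not overlap, at 0.77, 0.72 and 0.57 in scramble and 0.39, 0.51 and 0.54 in shCPT-1, and its part in the results was not tested. Arrays scramble 3 and shCPT-1 1 correlated least with the others of their group, and without both of them 2905 genes were higher and 2094 lower in shCPT-1, against 2979 and 2323 with all arrays.

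CPT1A was lower in the knockdown on every array and with every probe set. On its brightest probe set the scramble arrays read 9.64, 9.84 and 9.86 and the shCPT-1 arrays 8.11, 8.10 and 8.34. The groups were thus separated by more than a log2 unit, and the fitted change was -1.59 ± 0.08 (SE, n = 3 arrays per group, limma adjusted p = 1.97e-08). A second probe set read 6.17, 6.19 and 5.91 in scramble and 4.73, 4.91 and 4.63 in shCPT-1, and another kept one 6.90, 6.90 and 6.97 against 6.42, 6.07 and 5.98. Neither overlapped between the groups. The shCPT-1 arrays also lay under all shCPT-2 arrays, which read 9.58, 9.60 and 9.48 on the brightest probe set (shCPT-1 minus shCPT-2 -1.37 ± 0.08, limma adjusted p = 1.02e-07), and under the ETX arrays, which read 10.90, 10.80 and 10.97. No value is given for CPT1B, whose probe sets list more than 1 symbol.

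**Figure D1:**
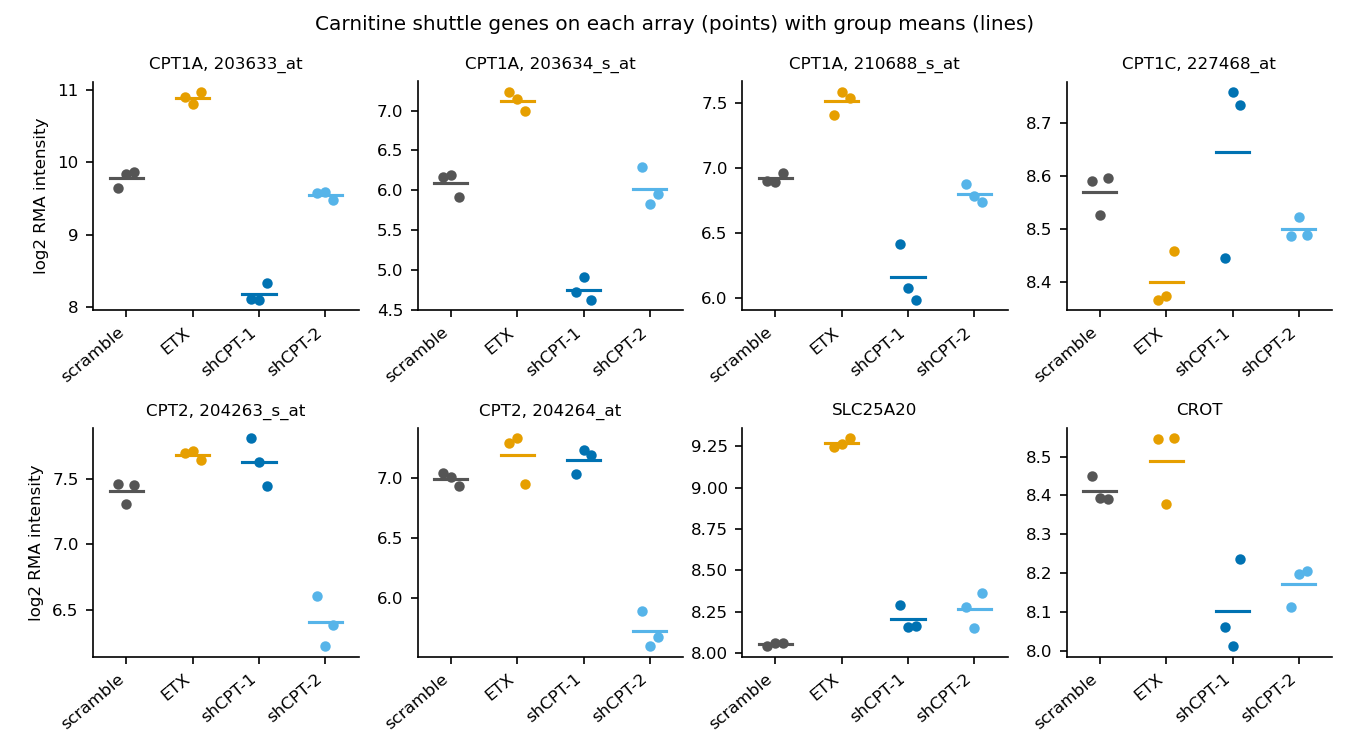
Log2 intensity (vertical axis, a separate scale for each panel) of carnitine shuttle genes on each array, with points for arrays and lines for the means of 3 arrays per group. The shCPT-1 points of CPT1A lie under those of all other groups on each of its 3 kept probe sets, while those of CPT2 overlap scramble.

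Of the 8 carnitine shuttle genes tested, 3 fell and 0 rose in shCPT-1, beside 18% lower and 23.1% higher among all tested genes. The 3 were CPT1A itself, the organic cation and ergothioneine transporter SLC22A4 and the peroxisomal carnitine octanoyltransferase CROT. SLC22A4 read 9.17, 9.35 and 9.14 in scramble and 8.63, 8.63 and 8.66 in shCPT-1 (-0.58 ± 0.07, limma adjusted p = 2.93e-05). Its groups did not overlap, and the shCPT-2 arrays, at 8.64, 8.46 and 8.61, were also low (0.07 ± 0.07 between the knockdowns, limma adjusted p = 0.471). CROT went from 8.45, 8.39 and 8.39 to 8.06, 8.01 and 8.24, a change of -0.31 ± 0.07.

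The other 5 did not pass. CPT1C read 8.59, 8.53 and 8.60 in scramble and 8.45, 8.76 and 8.73 in shCPT-1 (0.08 ± 0.07, limma adjusted p = 0.429). Its lowest and highest shCPT-1 arrays lay on either side of scramble, and without shCPT-1 1 the change was 0.18 with an adjusted p = 0.0147. CPT2 read 7.46, 7.31 and 7.46 against 7.81, 7.62 and 7.45, which overlapped (0.22 ± 0.10, limma adjusted p = 0.0987), and without shCPT-1 3 the change was 0.31 with an adjusted p = 0.0314. The carrier SLC25A20 (0.15 ± 0.06, adjusted p = 0.052 by limma) passed without shCPT-2 2 or shCPT-2 3, the carnitine importer SLC22A5 (-0.12) passed without shCPT-1 3, and the carnitine acetyltransferase CRAT (-0.09) passed without shCPT-1 1.

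Downstream of the shuttle the changes were mixed. Among mitochondrial beta-oxidation enzymes 6 of 19 rose and 1 fell, beside 23.1% higher and 18% lower among all tested genes, and the median change was 0.19 against 0.01. Of the 6, ACADSB and ACAD9 lie in runs of neighbouring genes that were mostly higher, described below, and outside these runs 4 of 17 rose. ACADSB, which oxidises short branched-chain acyl-CoA, read 6.33, 6.62 and 6.54 in scramble and 7.43, 7.42 and 7.36 in shCPT-1 (0.91 ± 0.12, limma adjusted p = 8.35e-05). The groups did not overlap, and shCPT-2 read 7.69, 7.14 and 7.64 (-0.09 ± 0.12 between the knockdowns). ETFDH, which passes electrons from beta-oxidation to ubiquinone, rose by 0.57, ACAD9 by 0.33 and the enoyl-CoA hydratase ECHS1 by 0.29. Among peroxisomal genes 5 of 14 rose and 1 fell. ACOX2, the branched-chain acyl-CoA oxidase, went from 7.24, 7.07 and 7.03 to 8.23, 8.24 and 8.25 (1.13 ± 0.10, limma adjusted p = 3.8e-06). No other group reached those values, and its shCPT-2 arrays read 7.23, 7.06 and 6.94. EHHADH, the peroxisomal bifunctional enzyme, rose from 5.82, 5.85 and 5.89 to 6.45, 6.68 and 6.64, starting below the array medians.

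FABP5, a carrier of fatty acids and retinoic acid in the cytosol, was the most strongly lowered gene of the fatty acid lists. Its scramble arrays read 11.14, 11.14 and 11.21 and its shCPT-1 arrays 8.03, 8.12 and 8.15 (-3.06 ± 0.05, limma adjusted p = 1.5e-12). The shCPT-2 arrays lay between, at 9.39, 9.36 and 9.30, and ETX at 11.16, 11.23 and 11.26. The shCPT-1 level was thus below both (-1.25 ± 0.05 against shCPT-2, limma adjusted p = 4.47e-09). Over the whole list of fatty acid uptake, binding and activation 4 of 17 rose and 5 fell, with a median of 0.01. The acyl-CoA synthetase ACSF2 rose by 0.57 and the transporter SLC27A1 by 0.40, while the acyl-CoA binding protein ACBD5 fell by 0.34.

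Storage and synthesis genes moved in both directions. Of lipid droplet and triglyceride genes 9 of 25 rose and 5 fell, beside 23.1% and 18% of all tested genes. G0S2, which inhibits the lipase that opens triglyceride breakdown, went from 12.70, 12.76 and 12.72 to 12.09, 12.17 and 12.10 (-0.61 ± 0.04, limma adjusted p = 4.28e-07), and DGAT2, which completes triglyceride synthesis, fell by 0.59. LPIN2, a phosphatidate phosphatase, rose by 0.66, and the droplet coat protein PLIN2 read 10.41, 10.41 and 10.72 in scramble and 11.21, 11.03 and 11.01 in shCPT-1, well short of the ETX arrays at 12.53, 12.58 and 12.55. In fatty acid synthesis, desaturation and elongation 7 of 18 rose and 1 fell. The desaturase SCD rose from 11.92, 11.91 and 11.92 to 12.53, 12.44 and 12.44 (0.55 ± 0.05, limma adjusted p = 2.6e-06), and the elongase ELOVL7 from 7.80, 7.81 and 7.83 to 8.79, 8.84 and 8.86. Both were above all 9 arrays of the other groups. SREBF1, the transcription factor of lipid synthesis, rose as well (1.09 ± 0.07), and it lies in a run of neighbouring genes on chromosome 17 that were mostly higher, described below.

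Sterol synthesis and sterol export went opposite ways. In synthesis and uptake 10 of 21 fell and 2 rose (median -0.13), and in export and storage 8 of 13 rose and 1 fell (median 0.26). SC5D, a late enzyme of cholesterol synthesis, read 9.57, 9.78 and 9.71 in scramble and 8.87, 8.89 and 8.81 in shCPT-1 (-0.83 ± 0.06, limma adjusted p = 1.17e-06), and HMGCS1, an early one, 9.24, 9.31 and 9.29 against 8.47, 8.52 and 8.58 (-0.76 ± 0.06). The shCPT-1 arrays of both genes were under those of every other group. The squalene epoxidase SQLE fell by 0.38 and MSMO1 by 0.34. ABCA1, which exports cholesterol, went from 5.58, 5.49 and 5.19 to 6.46, 6.47 and 6.45 (1.04 ± 0.15, limma adjusted p = 0.00014), a rise from below the array medians. It was tested only because its shCPT-1 arrays lay above those medians, so its place among the risen members is favoured by the filter. MYLIP, which marks the LDL receptor for breakdown, rose by 0.59. The count of sterol synthesis members that rose was 1 without scramble 1 or scramble 2, any shCPT-1 array, ETX 1, shCPT-2 1 or shCPT-2 3. The list of PPAR and RXR receptors and targets had 1 of 18 higher and 5 lower, where the pantetheinase VNN1 went from 6.42, 6.47 and 5.91 to 4.46, 4.38 and 4.86 and CPT1A is itself a member. Without scramble 3, 2 of these rose.

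Across the transcriptome 2979 genes were higher (23.1%) and 2323 lower (18%) in shCPT-1 than in scramble, mostly by little, with a median size of 0.30 among called genes. At 2-fold or more 74 rose (0.574%) and 85 fell (0.66%). In 2875 of the higher genes (22.3%) and 2242 of the lower ones (17.4%) the 3 arrays of the groups did not overlap. The named genes below are the 15 largest of each direction with a group mean of at least 8.69, the median over tested genes. Of the 220 genes named by rule in all comparisons, 104 have more than 1 kept probe set, and in 51 of these at least 1 of them was not called.

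The largest of the falls was that of SRPX, followed by FAM133A and FABP5. SRPX, a sushi-repeat protein of the matrix, read 10.06, 10.09 and 10.10 in scramble and 6.39, 6.69 and 6.43 in shCPT-1 (-3.58 ± 0.07, limma adjusted p = 1.27e-11). FAT3, an atypical cadherin, went from 10.77, 10.59 and 10.41 to 7.65, 7.99 and 7.95, and OLFML3, a secreted olfactomedin-like protein, from 9.65, 9.72 and 9.81 to 6.90, 6.83 and 7.22. All 3 were lower in shCPT-1 than in shCPT-2, by 0.86, 1.63 and 1.07 in that order. PLCB1, a phospholipase that makes inositol trisphosphate and diacylglycerol, went from 9.70, 9.75 and 9.75 to 6.45, 6.91 and 6.88 (-2.98 ± 0.12), and it was lower still in shCPT-2, at 6.01, 5.63 and 5.93 (0.89 ± 0.12 between the knockdowns, limma adjusted p = 9.1e-05). EHF, an epithelial ETS transcription factor, showed the same order, with 9.89, 9.92 and 9.70 in scramble, 7.82, 7.92 and 7.77 in shCPT-1 and 6.20, 6.11 and 6.23 in shCPT-2. KYNU, the kynureninase of tryptophan breakdown, did so too, at 10.84, 10.91 and 10.97, then 9.03, 9.05 and 9.02, then 8.65, 8.32 and 8.46.

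Of the remaining falls, FAM133A, SVIP, an inhibitor of endoplasmic reticulum-associated degradation, and SHISA2, a regulator of growth factor receptor maturation, changed by -3.18, -2.17 and -2.10. ATP9B, a P4-type ATPase, read 9.56, 9.52 and 9.47 in scramble and 7.70, 7.82 and 7.86 in shCPT-1 (-1.72 ± 0.05, limma adjusted p = 7.2e-10). Its shCPT-2 arrays lay between, at 8.47, 8.40 and 8.41. Further kept probe sets of ATP9B changed by -0.75 and -0.11 against scramble, the last of them not called. CYP1B1, a cytochrome P450 induced through the aryl hydrocarbon receptor, fell from 9.35, 9.18 and 8.86 to 7.33, 7.72 and 7.66, and AFF3, of a family in transcription elongation complexes, from 8.46, 8.74 and 8.87 to 7.26, 7.26 and 7.07. Neither differed from shCPT-2 beyond the test (-0.04 ± 0.14 and 0.08 ± 0.14). LPXN, leupaxin, a focal adhesion adaptor, went from 11.80, 11.81 and 11.83 to 10.28, 10.36 and 10.39 (-1.47 ± 0.05), under every other array.

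The largest rises were smaller than the falls. MATN2, a matrilin of the matrix, read 7.01, 7.17 and 6.96 in scramble and 8.86, 8.82 and 8.98 in shCPT-1 (1.84 ± 0.08, limma adjusted p = 4.84e-09). SFTA3 went from 7.09, 7.12 and 7.30 to 8.88, 9.01 and 8.99, and NKX2-1, the lung and thyroid transcription factor that neighbours it, from 7.90, 8.06 and 7.99 to 9.25, 9.43 and 9.35. Both were higher again in shCPT-2, by 0.30 and 0.48. Of the other lung and foregut lineage genes few moved with them: over that list 4 of 14 rose and 3 fell, the median was -0.07, and the surfactant genes SFTPB and SFTPC changed by -0.24 and -0.08, values picked after they were seen. The noncoding RNA AFAP1-AS1 rose by 1.70, L1CAM, an adhesion molecule of the immunoglobulin family, by 1.44, CTH, the last enzyme of cysteine synthesis, by 1.41, and EREG, a ligand of the EGF receptor, by 1.35. A further kept probe set of NKX2-1, L1CAM and EREG changed by only 0.15, 0.15 and 0.23, none of them called. EEF1A2, a translation elongation factor, went from 7.77, 7.27 and 8.03 to 9.19, 9.27 and 9.19, with a wide spread in scramble (1.53 ± 0.23, limma adjusted p = 0.000181).

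PTGES, the inducible prostaglandin E synthase, and S100A4, a calcium-binding protein linked to metastasis, rose here and were below scramble in the other knockdown. PTGES read 9.10, 9.03 and 8.95 in scramble, 10.22, 10.45 and 10.39 in shCPT-1 and 7.78, 7.11 and 7.38 in shCPT-2. S100A4 read 9.23, 9.17 and 9.24, then 10.64, 10.49 and 10.49, then 8.10, 7.88 and 8.06. No array of one group reached another group's in either gene, and the knockdowns differed by 2.93 ± 0.13 and 2.52 ± 0.06 (limma adjusted p = 1.05e-08 and 1.44e-10). MELTF, melanotransferrin, an iron-binding protein of the cell surface, went from 8.35, 8.32 and 8.33 to 9.57, 9.51 and 9.79 (1.29 ± 0.07), and the noncoding RNA LINC00973 from 8.79, 8.80 and 8.83 to 10.08, 10.18 and 10.08 (1.31 ± 0.05). The 3 kept probe sets of MELTF changed by 0.20 to 1.29, and 2 of them were called. Its 25 neighbours on chromosome 3 had a median change of 0.41. RANGRF, TRAPPC1 and ZSWIM7 rose by 1.44, 1.40 and 1.30 and lie in the same run of mostly higher genes on chromosome 17, described below.

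**Figure D2:**
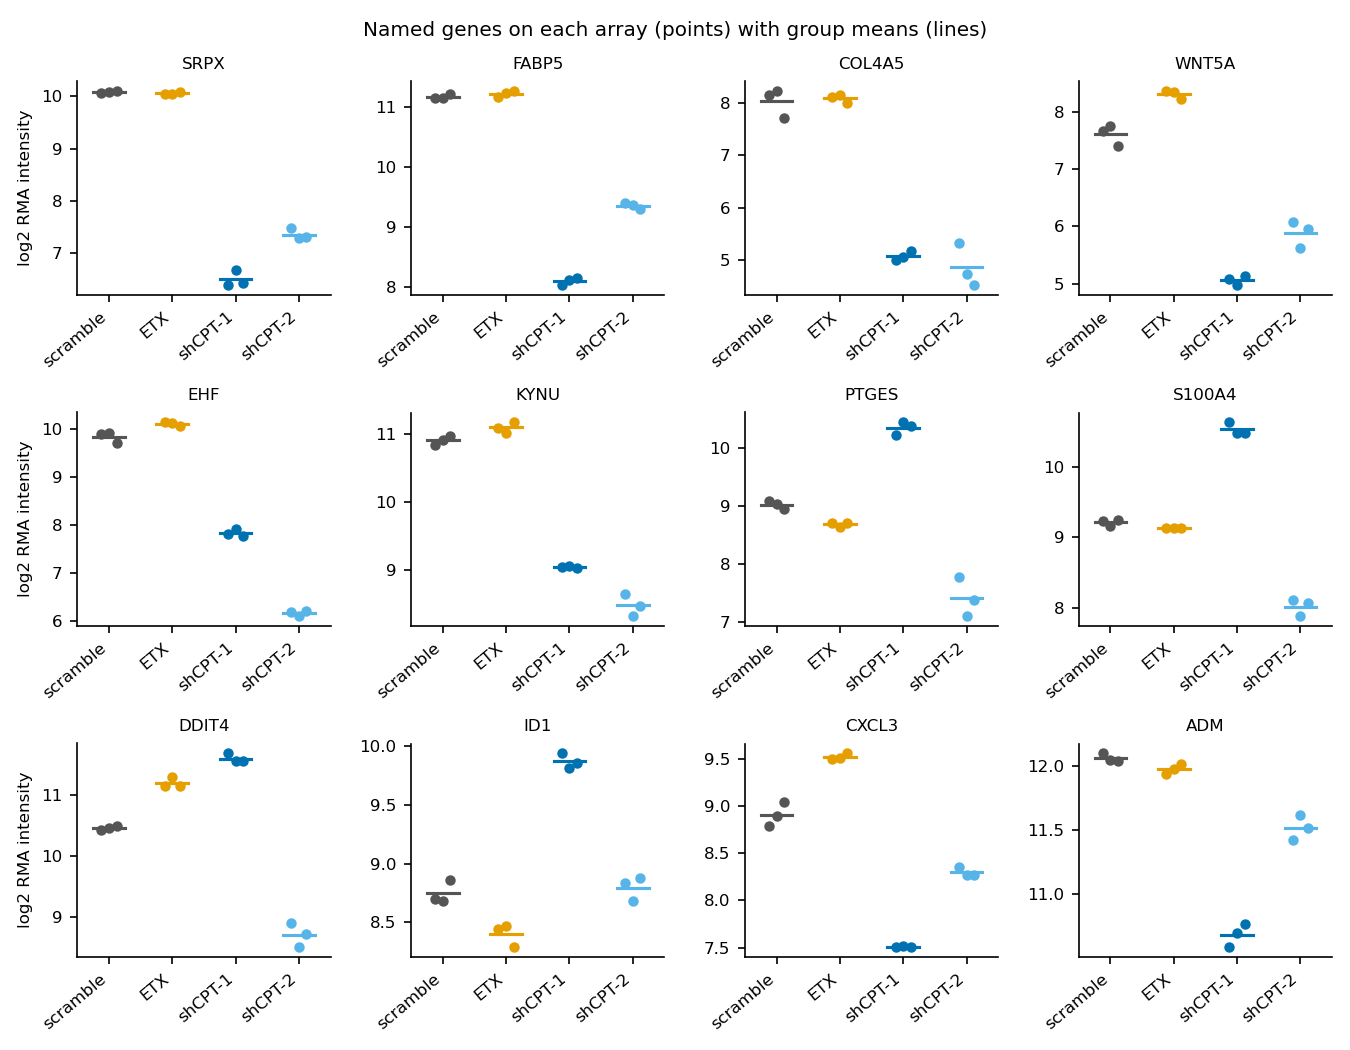
Log2 intensity (vertical axis, a separate scale for each panel) of 12 named genes on each array, with points for arrays and lines for means of 3 arrays per group. SRPX, FABP5 and ADM are lowest in shCPT-1 and PTGES, S100A4 and ID1 highest, while EHF and KYNU are lower in shCPT-2 than in shCPT-1.

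Below the level threshold of the naming rule some changes were larger still, and these genes were picked after their values were seen. NAP1L3, a nucleosome assembly protein, read 8.11, 8.22 and 8.29 in scramble and 4.62, 3.89 and 4.27 in shCPT-1, and TENM2, a teneurin adhesion receptor, 8.46, 8.47 and 8.37 against 4.88, 4.60 and 4.74. Both ended far below the array medians. In the other direction FGF13 went from 6.16, 6.19 and 6.25 to 8.58, 8.61 and 8.69 and was near scramble in shCPT-2, at 6.77, 6.35 and 6.45. CLIC3 went from 5.86, 5.76 and 5.55 to 7.90, 8.01 and 7.78. In all, 5 genes rose and 16 fell at least 4-fold.

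The amino acid stress programme was among the groups that were mostly higher. ATF4 is a transcription factor whose translation rises when amino acids run short or the endoplasmic reticulum is stressed, and its targets supply amino acids and dampen growth signalling. Of 32 listed genes 17 rose and 6 fell (median 0.24), beside 23.1% and 18% of all tested genes. The count of those that fell was 3 without scramble 2, shCPT-1 1 or shCPT-1 2. CTH read 8.12, 8.01 and 8.09 in scramble, 9.52, 9.49 and 9.45 in shCPT-1, 9.05, 9.05 and 9.11 in shCPT-2 and 10.19, 10.12 and 10.12 with ETX. ASNS, asparagine synthetase, had the same order, at 9.63, 9.71 and 9.75 in scramble, 10.59, 10.50 and 10.51 in shCPT-1 and 11.36, 11.37 and 11.40 with ETX. GDF15, a stress cytokine, was instead highest in shCPT-1, with 5.70, 5.86 and 5.73 in scramble, 6.93, 6.93 and 6.88 in shCPT-1 and 6.50, 6.74 and 6.61 with ETX. DDIT4, an inhibitor of mTORC1, was the member in which the knockdowns parted: 10.43, 10.46 and 10.50 in scramble, 11.70, 11.57 and 11.56 in shCPT-1 and 8.89, 8.50 and 8.72 in shCPT-2.

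The promoters of the members were searched for TGATGNAA, a core of the composite site that C/EBP and ATF4 bind, on both strands of the 250 bases before the start (RefSeq, GRCh38.p14). It was present in 5 of the 27 members with a promoter, in 4 of 16 that rose and in 0 of 5 that fell. Among all 10431 tested genes that have a promoter there, 1.54% held it. Fragments from the 4 members that rose, picked for the match after their values were seen, are shown because they join a measured rise to the motif, read 5′ to 3′ on the strand of the gene with the motif, or its reverse complement, in capitals:
ATF3: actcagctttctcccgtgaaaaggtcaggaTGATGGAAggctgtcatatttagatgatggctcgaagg
CHAC1: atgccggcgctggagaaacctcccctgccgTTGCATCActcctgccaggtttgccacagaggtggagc
ASNS: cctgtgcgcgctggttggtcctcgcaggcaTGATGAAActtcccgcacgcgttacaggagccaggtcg
HERPUD1: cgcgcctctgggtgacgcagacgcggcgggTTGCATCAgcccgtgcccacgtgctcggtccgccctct

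The fragments lie at chr1:212565186-212565253 (plus strand, ATF3), chr15:40953232-40953299 (plus strand, CHAC1), chr7:97872439-97872506 (minus strand, ASNS) and chr16:56931936-56932003 (plus strand, HERPUD1). The stress transcription factor ATF3 went from 6.68, 6.65 and 6.74 to 7.34, 7.23 and 7.37 (0.62 ± 0.06, limma adjusted p = 4.02e-06). CHAC1, which breaks down glutathione, went from 7.17, 7.04 and 7.11 to 7.84, 7.77 and 7.85, and HERPUD1, a component of endoplasmic reticulum-associated degradation, rose by 0.34. The match is a description of these letters and shows no binding. For the sterol list the motif TCACNCCAC was searched in the same way, and 1 of 19 members held it, with 0 of 8 that fell and 0 of 2 that rose, beside 0.872% of tested genes.

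Lists of amino acid synthesis and tRNA charging were higher in part, and the list with cysteine synthesis shares CTH with the ATF4 list. Of serine, glycine, one-carbon and cysteine synthesis genes 9 of 21 rose and 2 fell, among them PSPH by 0.57 and PSAT1 by 0.47, both in serine synthesis. Of cytosolic aminoacyl-tRNA synthetases, which charge tRNA with amino acids, 9 of 17 rose and 2 fell. AARS1 read 9.98, 10.01 and 10.19 in scramble and 10.61, 10.49 and 10.51 in shCPT-1, while VARS1 went the other way, from 10.98, 10.91 and 10.80 to 10.43, 10.55 and 10.56. Amino acid transporters were even, with 5 of 21 higher and 5 lower, or 3 higher without scramble 1 or shCPT-1 3. SLC7A5, the large neutral amino acid transporter, rose by 0.50 and SLC36A4 fell by 0.66.

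Genes of the hypoxia response outside glycolysis had one of the highest shares of rises. When oxygen is short, the factor HIF induces genes for matrix, mitophagy, pH and vessels. Of 32 such genes 19 rose and 5 fell (median 0.27). LOX, which crosslinks collagen, read 9.59, 9.55 and 9.67 in scramble and 10.76, 10.79 and 10.74 in shCPT-1 (1.16 ± 0.04, limma adjusted p = 2.63e-09), and shCPT-2 read 10.79, 10.73 and 10.76 (0.00 ± 0.04 between the knockdowns). BNIP3, a mitophagy receptor, read 11.76, 11.74 and 11.72 in scramble and 12.68, 12.61 and 12.64 in shCPT-1, above every other array, with shCPT-2 at 11.85, 11.69 and 11.74. ADM, adrenomedullin, a vessel-relaxing peptide, was among the 5 that fell, from 12.10, 12.05 and 12.05 to 10.58, 10.69 and 10.76 (-1.39 ± 0.06).

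The core of the HIF site, ACGTG, was searched on both strands of the same 250 bases, where 23.1% of promoters of tested genes and 18.7% of all promoters hold it. It was present in 12 of 24 members with a promoter, in 10 of 14 that rose and in 1 of 3 that fell. It is a short motif that the E-box CACGTG contains. Fragments from the 3 members with the largest rises among those that hold it are shown, 1 of the 4 matches in LOX among them, with the motif or its reverse complement in capitals:
LOX: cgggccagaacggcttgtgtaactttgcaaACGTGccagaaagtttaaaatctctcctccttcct
BNIP3: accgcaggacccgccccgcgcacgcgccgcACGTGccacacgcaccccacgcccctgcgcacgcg
DDIT4: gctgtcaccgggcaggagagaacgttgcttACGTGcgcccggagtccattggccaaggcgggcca

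They lie at chr5:122078267-122078331 (minus strand, LOX), chr10:131982022-131982086 (minus strand, BNIP3) and chr10:72273769-72273833 (plus strand, DDIT4) of GRCh38.p14. Of glycolysis and lactate transport genes, which HIF also induces, 6 of 24 rose and 0 fell, beside 23.1% higher among all genes, with ENO2 at 0.46 and PDK1, a brake on pyruvate dehydrogenase, at 0.47. In the TCA cycle and pyruvate entry 11 of 31 rose and 5 fell. The first count was 5 without scramble 1, scramble 2 or shCPT-1 1, and the second 3 without scramble 3, shCPT-1 2 or shCPT-1 3. PCK2, the mitochondrial phosphoenolpyruvate carboxykinase, rose by 0.79, and the pyruvate carrier subunit MPC1 fell by 0.48.

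Angiogenic factors were mostly changed, 10 of 21 lower and 7 higher, beside 18% lower and 23.1% higher among all tested genes. VEGFC, a lymphatic growth factor, fell by 0.68, and ANGPT1, a ligand of the TIE2 receptor, went from 6.58, 6.52 and 6.38 to 5.39, 5.44 and 5.66, below the array medians. FGF5 rose by 0.58. Beside this list, the summed level of 9 endothelium markers was 9.34 to 9.37 in scramble and 9.08 to 9.19 in shCPT-1. Of the 4 tested 3 fell, 1 of them without scramble 1, scramble 2 or shCPT-1 2, and KDR, a VEGF receptor, fell by 0.64. Their part in the angiogenic list was not tested, and 4 of the 9 were below the array median on all 12 arrays. The arrays are labelled as a breast cancer line, so these levels are no measure of the number of endothelial cells.

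Transcripts of chemokines and of NF-kB genes were more often lower than higher. Of 11 chemokine genes tested 6 fell and 0 rose (median -0.28), beside 18% lower and 23.1% higher among all tested genes. CXCL3, a neutrophil attractant, read 8.79, 8.89 and 9.04 in scramble and 7.51, 7.52 and 7.51 in shCPT-1 (-1.39 ± 0.06, limma adjusted p = 5.3e-09). Its neighbour CXCL2 read 9.89, 10.12 and 10.11 against 9.10, 8.92 and 9.03. Both were lower than in shCPT-2 and with ETX, where CXCL3 read 9.50, 9.51 and 9.56. CCL20 fell by 0.74 from a level under the array medians, and the receptor CXCR4 fell by 0.33 here while its shCPT-2 arrays, at 9.34, 9.39 and 9.34, were above scramble at 8.54, 8.46 and 8.50. Further kept probe sets of CXCR4 changed by -0.09 and -0.11 in shCPT-1 against scramble, neither of them called.

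NF-kB subunits and their feedback inhibitors had 12 of 23 lower and 1 higher (median -0.18). ICAM1, a leukocyte adhesion molecule, read 8.07, 8.07 and 7.99 in scramble and 7.40, 7.23 and 7.51 in shCPT-1, and NFKBIA, the inhibitor that NF-kB induces, 11.82, 11.76 and 11.63 against 11.10, 11.14 and 11.19 (-0.60 ± 0.05, limma adjusted p = 3.04e-06). ICAM1 differed by 0.02 ± 0.07 between the knockdowns, and NFKBIA was lower in shCPT-2 by 0.24. The subunit RELA fell by 0.44 and lies in a shifted stretch of chromosome 11, while NFKBIZ rose by 0.41 and lies in one of chromosome 3. Interleukins, colony-stimulating factors and their receptors were mixed, with 7 of 23 higher and 5 lower, or 3 lower without scramble 2, shCPT-1 2 or shCPT-1 3. IL10RB rose by 0.88, IL1RAP by 0.61 and OSMR by 0.36, and IL1R1 fell by 0.73. In prostaglandin and leukotriene synthesis 4 of 14 rose and 0 fell, and apart from PTGES the changes were at most 0.26.

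Genes of the response to double-stranded RNA and interferon moved both ways, 12 of 38 higher and 10 lower (median 0.04). ISG20, an antiviral exonuclease, read 7.08, 7.05 and 6.86 in scramble and 8.31, 8.14 and 8.18 in shCPT-1 (1.21 ± 0.08, limma adjusted p = 2.43e-07), above all other arrays, and OAS1, which senses double-stranded RNA, rose by 0.57. TRIM22 went from 7.28, 7.39 and 7.46 to 6.26, 6.43 and 6.33, and the transcription factor IRF1 from 9.21, 9.29 and 9.25 to 8.48, 8.59 and 8.50. The RNA interference machinery itself had 3 of 13 higher and 4 lower, or 2 lower without scramble 1, with changes of -0.45 for TNRC6C and 0.38 for AGO4 at the extremes. Antigen presentation had 7 of 24 higher and 5 lower, beside 23.1% and 18% of all tested genes. The first count was 4 without scramble 1 and 2 without scramble 2 or shCPT-1 1. CTSS, a protease that trims the class II chaperone, went from 8.98, 8.92 and 8.77 to 7.52, 7.79 and 7.72, and HLA-DMA, a class II peptide editor, rose from 7.99, 8.06 and 7.78 to 8.48, 8.56 and 8.51 while shCPT-2 read 7.19, 6.92 and 7.10.

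The matrix was changed in composition more than in one direction. Of matrix glycoproteins and matricellular proteins 15 of 42 rose and 12 fell, from SRPX at -3.58 to MATN2 at 1.84, and ECM1 rose by 0.92. Collagens had 6 of 17 higher and 3 lower. COL4A5, a basement membrane chain, read 8.15, 8.22 and 7.71 in scramble and 4.99, 5.05 and 5.16 in shCPT-1, and COL6A3, a microfibril chain, 8.02, 8.07 and 7.85 against 6.31, 6.17 and 6.15. Between the knockdowns they differed by 0.20 ± 0.18 and 0.09 ± 0.08. COL8A1 rose by 0.80.

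Proteases split as well. Of matrix metalloproteinases, ADAMTS proteases and TIMPs 5 of 23 rose and 7 fell. MMP9, a gelatinase, went from 8.58, 8.33 and 8.55 to 6.74, 6.75 and 6.82, with 0.07 ± 0.10 between the knockdowns. MMP1, a collagenase, read 12.15, 12.23 and 12.28 in scramble and 11.72, 11.66 and 11.71 in shCPT-1, whereas shCPT-2 stood at 12.85, 12.83 and 12.86 and ETX at 13.06, 13.02 and 13.03. The plasminogen activator system had 5 of 9 higher and 2 lower. Tissue plasminogen activator, PLAT, rose from 10.85, 10.85 and 10.69 to 11.62, 11.71 and 11.74 (0.89 ± 0.06, limma adjusted p = 1.85e-07), and urokinase, PLAU, from 10.75, 10.81 and 10.70 to 11.38, 11.32 and 11.34. Both were above every other array, and the protease inhibitor SERPINE2 fell by 0.44. Only 1 member of that system was lower when any array but scramble 3 or ETX 3 was left out.

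Epithelial junction genes were mostly higher. Of tight junction and keratin genes 11 of 19 rose and 2 fell (median 0.20). CLDN4, a claudin, read 6.87, 6.68 and 7.02 in scramble and 8.62, 8.47 and 8.36 in shCPT-1 (1.62 ± 0.15, limma adjusted p = 3.51e-06), and KRT19 10.85, 10.86 and 10.97 against 11.64, 11.63 and 11.59. Both were above all other arrays, as were KRT80 and CLDN7. The summed level of 14 luminal breast epithelium markers, which include CLDN4 and KRT19, was 12 to 12.13 in scramble and 12.43 to 12.51 in shCPT-1, and their part was not tested. Of the 10 tested 3 rose and 3 fell, and GATA3, EPCAM and XBP1 changed by -0.33, -0.29 and 0.47. A second kept probe set of XBP1 changed by -0.34.

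Adhesion receptors and the regulators of epithelial-mesenchymal transition showed no common direction. Cadherins, protocadherins and immunoglobulin-type adhesion molecules had 4 of 25 higher and 7 lower, with FAT4 at -0.91 and NECTIN3 at 0.71. Integrins had 4 of 16 higher and 3 lower, near the shares of all tested genes (23.1% and 18%). ITGB4, the hemidesmosome subunit, went from 7.53, 7.40 and 7.15 to 8.18, 8.25 and 8.36, and ITGB8 from 7.08, 7.09 and 7.01 to 5.75, 5.97 and 6.04, with shCPT-2 lower again at 4.66, 4.14 and 4.68. A further kept probe set of ITGB4 changed by -0.09 and was not called. Of 10 regulators 1 rose and 2 fell: KLF4 rose by 0.93, SNAI2 fell by 0.49, and TCF4, an E-protein, fell from 6.74, 6.55 and 6.52 to 5.37, 5.68 and 5.54. A further one passed as higher without scramble 2, shCPT-2 1 or shCPT-2 2. ZEB1 changed by -0.09 on its brightest probe set. Of its 3 kept probe sets 1 was called higher and 1 lower, with changes from -0.51 to 0.65. Among ETS factors 3 of 20 fell, EHF with SPDEF (-1.15) and ETS1 (-0.31), and 5 rose, or 3 without scramble 1, shCPT-1 1 or shCPT-1 2. S100 proteins had 4 of 10 higher and 1 lower: beside S100A4, S100A3, S100A2 and S100A10 rose by 0.54, 0.48 and 0.32.

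Growth factor feedback genes were more often higher. Of MAPK feedback phosphatases and Sprouty genes 10 of 22 rose and 2 fell. DUSP5, a phosphatase of ERK, went from 9.83, 9.91 and 10.04 to 11.18, 11.04 and 11.10 (1.18 ± 0.06, limma adjusted p = 3.89e-08), above shCPT-2 at 10.74, 10.61 and 10.78 and ETX at 10.54, 10.53 and 10.52. FOSL1, an AP-1 subunit, fell by 0.50 and IER3 by 0.47. Of EGF receptors and ligands 4 of 9 rose and 2 fell. EREG read 8.05, 8.21 and 8.53 in scramble and 9.97, 9.47 and 9.41 in shCPT-1, and the feedback inhibitor ERRFI1 rose by 0.66, HBEGF by 0.56 and TGFA by 0.28.

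Among genes of BMP and Wnt signalling, single members changed. In the TGF-beta and BMP list 10 of 36 rose and 9 fell (median -0.00), so no direction was shared. BMP2 went from 7.96, 7.91 and 7.48 to 6.06, 6.16 and 6.20 and the activin subunit INHBB from 9.06, 9.30 and 9.29 to 8.24, 8.16 and 8.24, with shCPT-1 minus shCPT-2 at 0.29 ± 0.11 and 0.22 ± 0.07. ID1, a target of BMP signalling, rose from 8.70, 8.68 and 8.86 to 9.94, 9.81 and 9.86 (1.12 ± 0.07, limma adjusted p = 1.78e-07), above all other arrays. TGFBR3, a co-receptor, fell by 0.91. In the Wnt and Notch list 11 of 40 rose and 11 fell. WNT5A, a noncanonical ligand, went from 7.67, 7.75 and 7.41 to 5.07, 4.97 and 5.13, below the array medians and below shCPT-2 at 6.07, 5.62 and 5.95. Its receptor ROR1 rose by 0.58, and FZD4 fell by 0.56.

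Phospholipase C and Src signalling were near the background outside PLCB1. Of phospholipase C, diacylglycerol and calcium release genes 6 of 27 rose and 7 fell, with the protein kinase C isoforms PRKCZ at 0.65, PRKCI at 0.37 and PRKCQ at -0.79. Of Src family kinases and regulators 2 of 18 rose and 4 fell, or 2 fell without scramble 2 or shCPT-1 1. SRC itself changed by 0.03 ± 0.10 (limma adjusted p = 0.84), PAG1, which anchors the Src inhibitor CSK, fell by 0.63, and YES1 rose by 0.40.

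Of DNA replication genes 15 of 48 were lower and 6 higher (median -0.06), beside 18% and 23.1% of all tested genes, with the cyclin CCNE2 going from 10.63, 10.67 and 10.54 to 9.98, 10.09 and 10.07 and the flap endonuclease FEN1 falling by 0.50. CCNE2 was not low in shCPT-2, at 10.81, 10.78 and 10.79. Mitosis genes were near that background, with 10 of 36 higher and 4 lower (median 0.05), or 6 higher without scramble 1. AURKB, a kinase of chromosome segregation, went from 10.43, 10.42 and 10.56 to 11.38, 11.33 and 11.45 and KIF4A, a chromokinesin, from 10.76, 10.80 and 10.89 to 10.08, 10.02 and 10.04. Each of these extremes lies in a shifted stretch, on chromosome 17 and on X. Outside them CENPA and CCNB2 rose by 0.28 each.

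Among the remaining lists, NRF2 and glutathione genes had 8 of 26 lower and 3 higher, or 5 higher without scramble 3. AKR1C3, an aldo-keto reductase, went from 10.19, 10.04 and 10.10 to 9.36, 9.38 and 9.30, and GPX4, which clears lipid peroxides, rose by 0.23. The tryptophan, kynurenine and aryl hydrocarbon receptor list had 7 of 18 higher and 3 lower. The 3 that fell were KYNU, CYP1B1 and NAPRT, and NAMPT, the salvage enzyme of NAD synthesis, rose from 11.23, 11.23 and 11.29 to 12.10, 12.11 and 12.06 (0.84 ± 0.05). Of 36 cancer-testis antigen genes looked for, 9 had a tested value: 3 rose and 4 fell, with MAGEB2 going from 5.51, 5.66 and 5.62 to 6.84, 6.97 and 7.17 and SPANXB1 falling by 0.54. Summed levels of leukocyte markers (9.05 to 9.12 in scramble and 9.06 to 9.22 in shCPT-1) and fibroblast markers (9.37 to 9.47 and 9.33 to 9.41) overlapped between the groups, and none of their tested members passed.

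**Figure D3:**
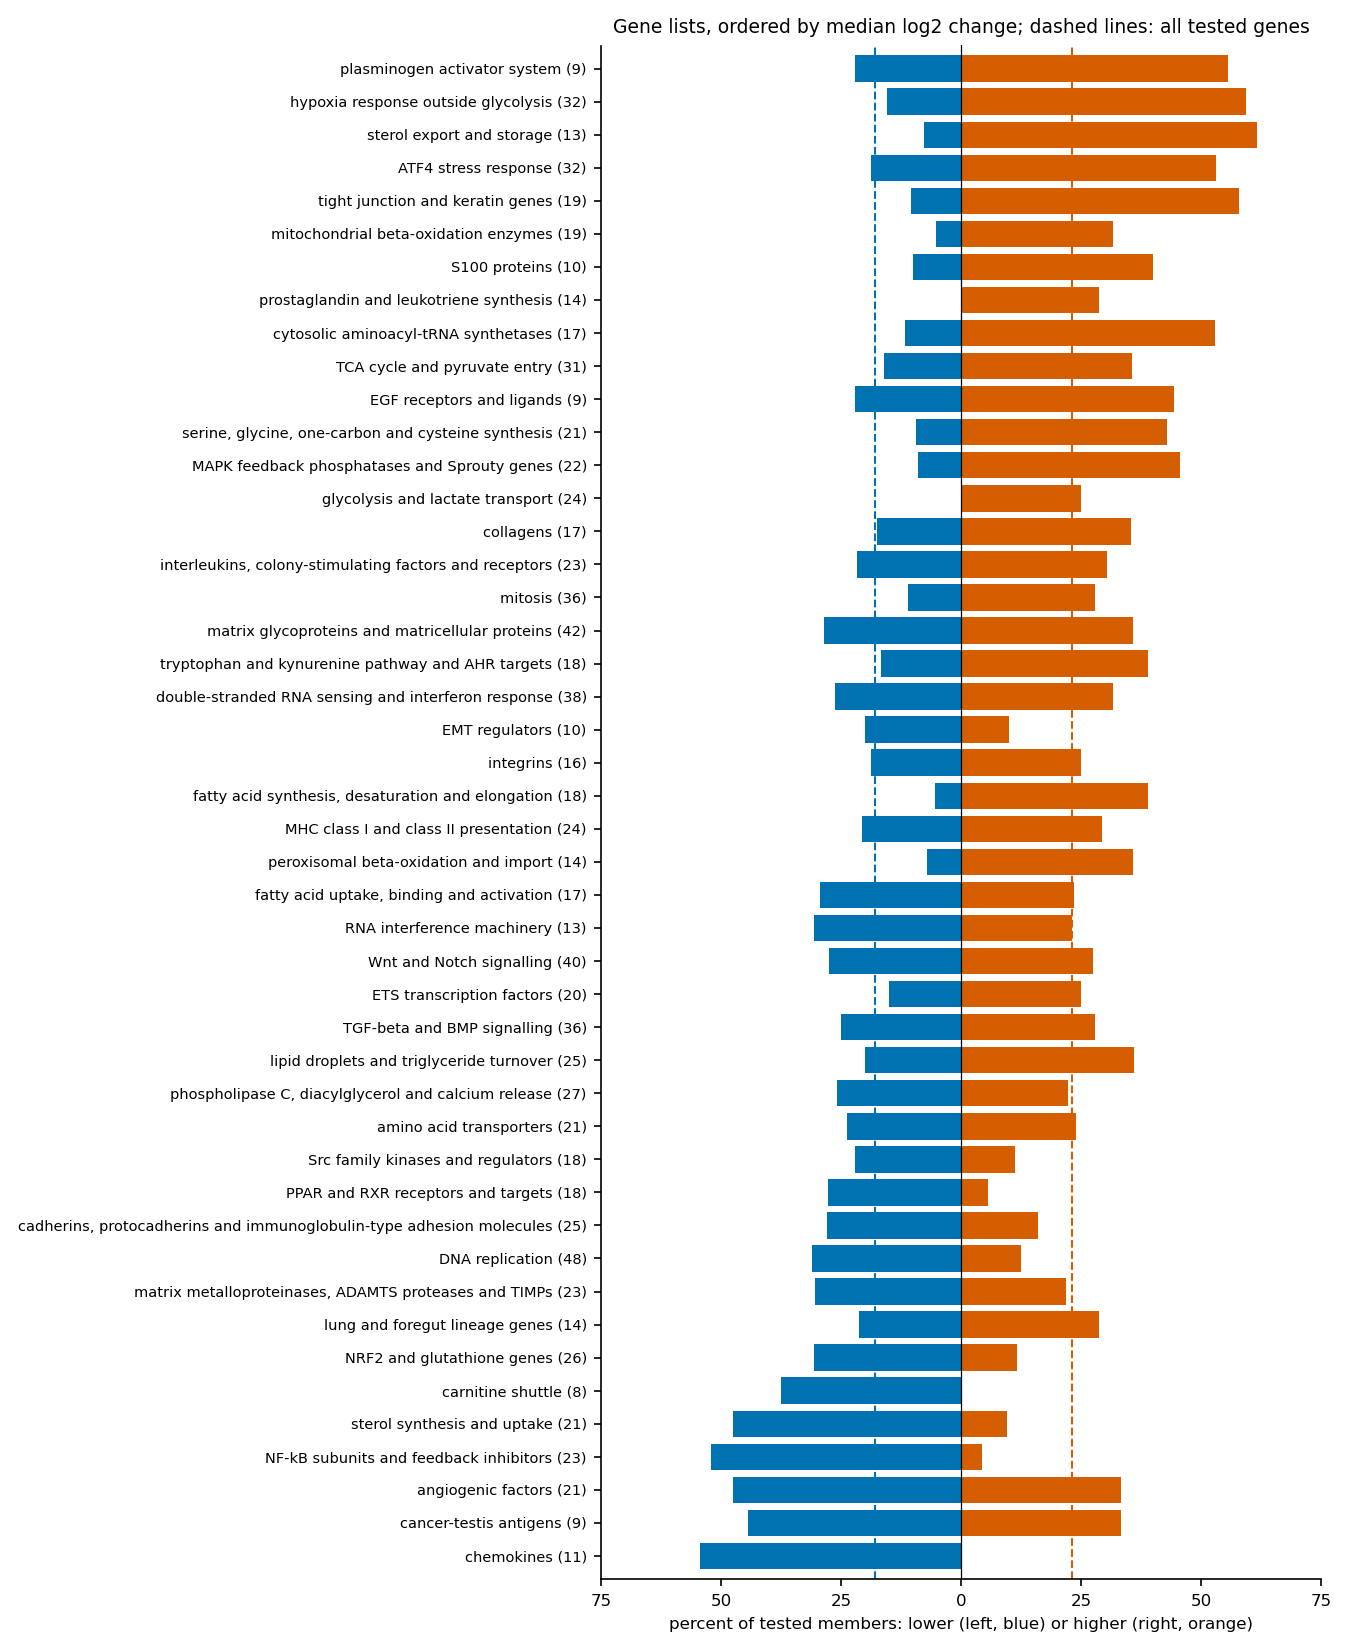
Percent of the tested members of each list other than cell type markers (number in brackets) that were lower (left, blue) or higher (right, orange) in shCPT-1 than in scramble by limma, ordered by the median log2 change, with dashed lines at 18% lower and 23.1% higher for all tested genes. Sterol export, hypoxia and tight junction genes extend furthest to the right and chemokines and NF-kB genes furthest to the left.

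Which changes set the CPT1 knockdown apart was read from the contrast of shCPT-1 with the mean of the other 3 groups. There 2587 genes were higher (20.1%) and 2235 lower (17.3%), and 1093 (8.48%) and 814 (6.32%) were also beyond all 9 other arrays. This contrast and that against scramble share the scramble arrays. Among genes that reach the level threshold, the 10 largest on the high side were PTGES, S100A4, DDIT4, RASD1, L1CAM, RCSD1, EEF1A2, BHLHE40, KRT80 and ID1. RASD1, a Ras-like protein induced by glucocorticoids, read 10.71, 10.69 and 10.74 in shCPT-1, 9.72, 9.75 and 9.66 in scramble and 8.68, 8.40 and 8.45 in shCPT-2. BHLHE40, a transcriptional repressor of the clock and of hypoxia, read 10.14, 10.04 and 10.07 against 9.27, 9.33 and 9.20 in scramble, and it was also low with ETX, at 8.59, 8.48 and 8.38. KRT80 had the same order, at 9.48, 9.57 and 9.47, then 8.63, 8.73 and 8.62, then 7.84, 7.77 and 7.68, and so had RCSD1, a regulator of actin capping, at 9.37, 9.46 and 9.43, then 8.42, 8.46 and 8.24, then 7.43, 7.52 and 7.42. In shCPT-2 BHLHE40 was below scramble too, at a mean of 8.62 ± 0.13 (SD, n = 3).

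A further kept probe set of RCSD1, a dim one, changed by -0.01 against scramble and was not called. On the low side, under the same threshold, the 10 were SRPX, FAT3, FABP5, OLFML3, FAM133A, CPT1A, SVIP, CXCL3, ATP9B and ZNF184. The last entered because of another group: ZNF184 read 7.79, 7.94 and 7.89 in shCPT-1 and 8.02, 8.10 and 8.02 in scramble, but 11.05, 11.01 and 11.12 in shCPT-2. Its fall against scramble (-0.18 ± 0.05) no longer passed without scramble 2 or shCPT-1 1.

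**Figure D4:**
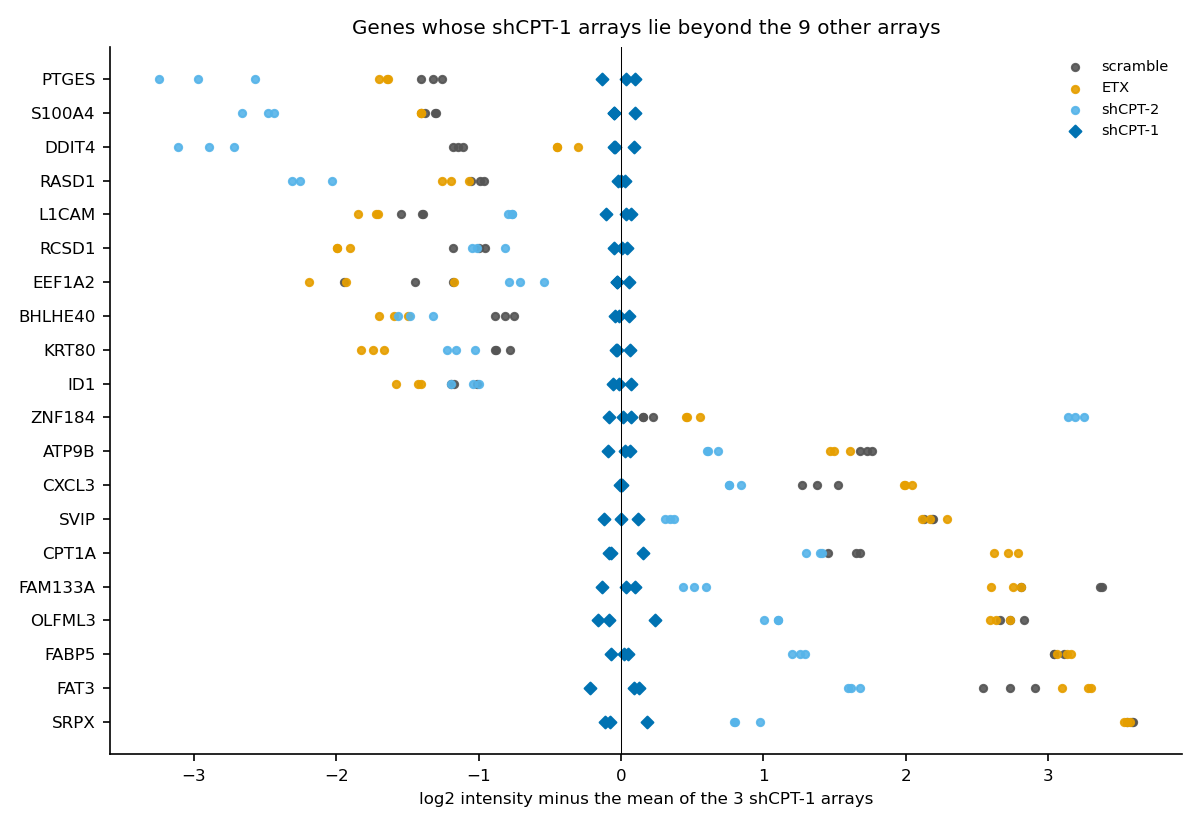
Log2 intensity of 20 genes on each array minus the mean of the 3 shCPT-1 arrays (horizontal axis), with diamonds for shCPT-1 and circles for the other arrays. In the upper 10 genes all circles lie left of the diamonds and in the lower 10 right of them. The shCPT-2 circles lie on the far side of scramble for PTGES, S100A4, DDIT4, RASD1 and BHLHE40 above and for ZNF184 below.

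Directly against shCPT-2, 2288 genes were higher (17.8%) and 2287 lower (17.7%) in shCPT-1, and 88 (0.683%) and 33 (0.256%) by 2-fold or more. Among genes that reach the level threshold, the largest rises were PTGES, DDIT4, S100A4, RASD1 and the noncoding RNA SLCO4A1-AS1, and the last of these differed from scramble by 0.10 ± 0.14 in shCPT-1 and was low in shCPT-2, at 8.42, 7.65 and 8.01. The largest falls were ZNF184, ESM1, ADAMTS1, FAT3 and ADAMTS6. ESM1, a secreted proteoglycan, read 7.79, 7.70 and 7.85 in shCPT-1, 7.46, 7.25 and 7.48 in scramble and 9.81, 9.86 and 9.83 in shCPT-2. ADAMTS6, a matrix protease, went opposite ways in the knockdowns, with 9.21, 9.11 and 9.14 in scramble, 8.28, 8.54 and 8.45 in shCPT-1 and 9.96, 10.03 and 9.91 in shCPT-2.

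Against ETX, which acts on the enzyme that the hairpin is named for, 2955 genes were higher (22.9%) and 2550 lower (19.8%) in shCPT-1, 81 (0.629%) and 145 (1.13%) by 2-fold or more. Above the level threshold the largest rises were RCSD1, AFAP1-AS1, MATN2, SREBF1 and EEF1A2, and the largest falls SRPX, PDK4, FAT3, PLCB1 and FABP5. PDK4, a fasting-induced brake on pyruvate dehydrogenase, read 8.75, 9.16 and 8.66 with ETX but 5.17, 5.59 and 5.37 in shCPT-1 and 5.06, 4.87 and 5.15 in scramble, both below the array medians. SREBF1 was on opposite sides of scramble, at 10.04, 10.11 and 10.18 in shCPT-1, 9.06, 9.08 and 8.92 in scramble and 8.41, 8.38 and 8.18 with ETX. The carrier SLC25A20, at 8.29, 8.16 and 8.16 in shCPT-1, was far under its ETX arrays at 9.25, 9.26 and 9.30.

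Many changed genes lay beside each other on the chromosomes. Genes were placed in the order of the RefSeq annotation, and the median change over 31 neighbouring genes was followed along each chromosome, a rule chosen after seeing the data. Runs where it reached 0.25 in size for at least 5 genes gave 21 stretches with 854 of 12867 placed genes (6.64%). In them 76.6% of genes were called, beside 38.7% outside, which the way they were chosen favours, and they held 40 of the 159 genes with 2-fold changes (25.2%). Without the genes of the stretches 2573 were higher and 2003 lower. Genes near a chromosome end lack a full window of 31 and could not enter a stretch. MELTF, LPIN2, YES1 and ATP9B are among them, with medians of 0.41, 0.24, 0.23 and 0.24 over their neighbours.

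The strongest stretch was on chromosome 17, from DNAH2 to GRAPL-AS1. Of its 85 genes 64 were higher and 1 lower, with a median of 0.61, and its median on the 3 shCPT-1 arrays was 0.56, 0.61 and 0.64 above scramble. The shCPT-2 arrays read 0.55, 0.50 and 0.52 there and the ETX arrays -0.05, -0.04 and -0.01. RANGRF, which helps place a sodium channel, TRAPPC1, a vesicle tethering subunit, ZSWIM7, a recombination factor, AURKB, RASD1 and SREBF1 are in it. RANGRF read 9.07, 9.03 and 9.02 in scramble, 10.44, 10.51 and 10.50 in shCPT-1 and 10.41, 10.42 and 10.45 in shCPT-2. RASD1 went against the stretch in shCPT-2, as given above.

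On the X chromosome 107 genes from LINC01278 to AMMECR1 had a median of -0.48, with 86 lower and 0 higher. The shCPT-1 arrays were at -0.52, -0.48 and -0.46 and the shCPT-2 arrays at -0.45, -0.53 and -0.50, while ETX was at 0.07, 0.10 and 0.06. COL4A5, KIF4A, FAM133A and NAP1L3 are in it, and their changes were larger than the stretch's median. On chromosome 3 there were 4 upward stretches with 318 genes, 238 higher and 10 lower (median 0.35), which hold LINC00973, EHHADH, COL8A1, NECTIN3, NFKBIZ and IL1RAP. On chromosome 2, 42 genes from GPAT2 to SNORD89 had a median of -0.44, with 33 lower and 0 higher, AFF3 among them.

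CPT1A lies in a downward stretch of chromosome 11. That chromosome had 8 such stretches with 183 genes, 128 lower and 3 higher (median -0.33), and FAT3, LPXN, RELA, FOSL1 and ETS1 are in them too. The neighbours of CPT1A had a median change of -0.34, and CPT1A itself of -1.59. In shCPT-2 the genes of these stretches had a median of -0.28, where CPT1A read 9.58, 9.60 and 9.48. Smaller stretches were on chromosomes 4, 10, 12 and 18. By the same rule ETX against scramble gave 2 stretches with 24 genes and shCPT-2 against scramble 22 with 706, and these comparisons share the scramble arrays. What the stretches come from was not tested, and DNA copy number of the lines was not analysed here. For the 854 genes in them, CPT1A included, it was not tested how much of the difference from scramble goes with the gene alone and how much with its neighbours.

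**Figure D5:**
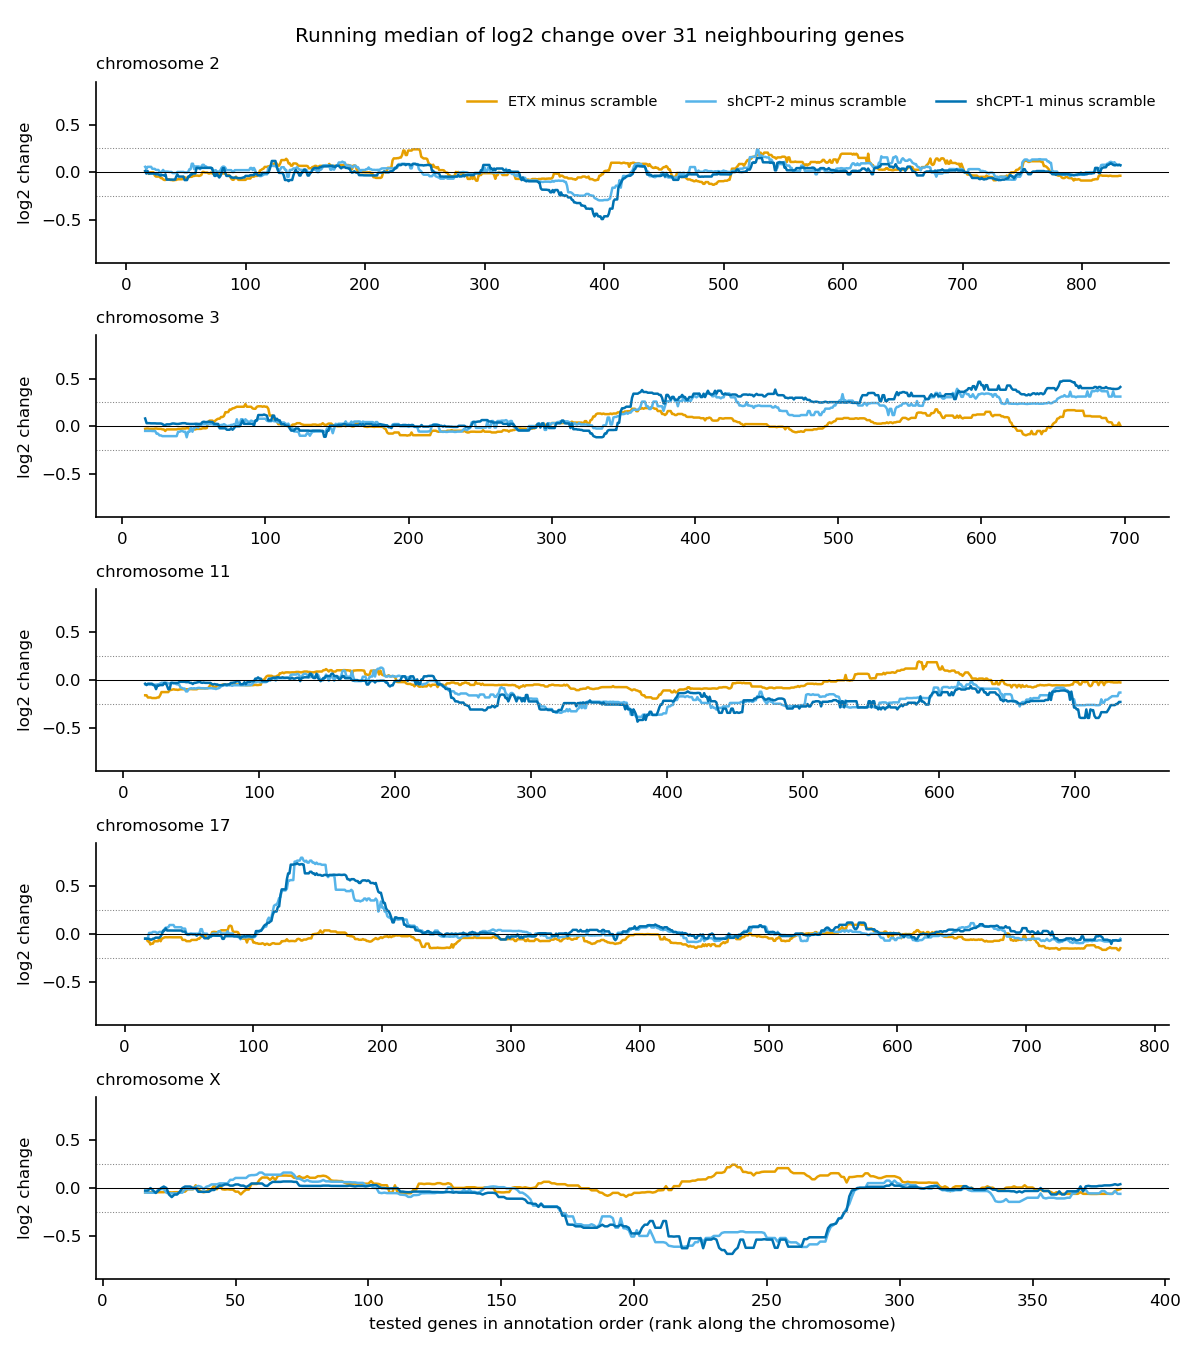
Running median of the log2 change against scramble over 31 neighbouring tested genes (vertical axis) along 5 chromosomes, by rank of the gene in annotation order (horizontal axis), with 1 line each for shCPT-1, shCPT-2 and ETX and dotted lines at 0.25 on either side. The lines of both knockdowns rise together on chromosomes 3 and 17 and drop together on 2, 11 and X, while the ETX line stays within the dotted lines there.

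Some list counts changed little with these genes left out. Outside the stretches 17 of 31 ATF4 genes rose and 5 fell, 18 of 31 hypoxia genes rose and 5 fell, 10 of 20 sterol synthesis genes fell and 2 rose, and 10 of 16 tight junction and keratin genes rose and 2 fell. NF-kB genes had 11 of 21 lower and 0 higher, and chemokines have no member in a stretch. Carnitine shuttle genes had 2 of 7 lower once CPT1A was left out with its stretch. Mitochondrial beta-oxidation, at 4 of 17 higher and 1 lower, came to the share of rises among all tested genes.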

How the data were processed

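Expression was measured on 12 single-colour oligonucleotide arrays. The deposited values are linear intensities, 1 for each probe set, which the authors made with RMA per the submitters' processing notes, a method that corrects background, equalises arrays and summarises probes. For the software version, its settings and the genome build, the sources used here give nothing. The deposited intensities were taken to log2. Of 54675 probe sets, 62 were controls, 41091 of the others had 1 gene symbol, 1801 several and 11721 none. Probe sets had to lie above the median of their array on 3 or more arrays, and the brightest one left stood for its gene, which gave 12887 genes. A gene that is dim elsewhere can thus enter through the group where it is high.

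All 12 arrays entered limma 3.58.1 in R 4.3.3 (lmFit, contrasts, eBayes; 8 residual and 4.117 prior degrees of freedom; two-sided, Benjamini-Hochberg). An exact test of 3 against 3 cannot go below p = 0.1. The 52 gene lists name 1276 genes, 978 of them tested. Named genes were the 15 largest rises and falls against scramble without overlap of arrays and with a higher group mean of at least 8.69, the 10 largest against the other 3 groups beyond all 9 arrays, the 5 largest against each treatment (both with the same level limit), the carnitine shuttle, SRC, and up to 4 members per list with the smallest p. The comparison, lists and members were chosen with earlier results of these data known. Gene order and promoters came from RefSeq (GRCh38.p14), by symbol, with 12867 genes placed. Simulated data took the means and spreads of the 12887 genes, with independent normal noise and few changed genes. There 89 of 100 genes changed by 0.5 and 99 of 100 changed by 1 were recovered, with 9 false calls. In the measured data many more genes were called and arrays differed in spread, so these rates may not hold for them. Alternatives were other filters, probe set rules, normalizations, variance models, array weights, a replicate block, the actin covariate and leaving out arrays. Figures were drawn with matplotlib 3.10.9 in Python 3.11.15.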

Additional observations from a re-analysis of the deposited data

How the results depend on the processing

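Array weights gave scramble 3 a weight of 0.248 and shCPT-1 1 one of 0.369. With these weights both directions grew: 4324 genes were higher and 3554 lower than in scramble, against 2979 and 2323 unweighted. Under the weights 3730 genes were higher and 3739 lower than in shCPT-2, and 4300 higher and 3497 lower than with ETX. From the mean of the other 3 groups 3988 differed upward and 3396 downward. With a fold threshold of 2 the counts higher and lower were 74 and 85 against scramble, 88 and 33 against shCPT-2, 81 and 145 against ETX, and 31 and 49 against the mean of the other 3 groups. The cause of the shift under array weights was not tested.

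With 1 array left out, genes higher than in scramble numbered 2502 to 3132 and lower ones 1870 to 2438. Against shCPT-2 they were 1811 to 2449 and 1844 to 2478, against ETX 2403 to 3155 and 2189 to 2719, and against the mean of the other 3 groups 2015 to 2714 and 1790 to 2345.

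The numbers in the array titles follow accession order, and the labels do not say that they pair arrays. Same-numbered shCPT-1 and scramble arrays deviated from their group means with correlations of -0.46, 0.31 and -0.44. The deviations of shCPT-1 1 and scramble 3 correlated at 0.61, and what they share was not tested. Each had the lowest actin and GAPDH 3-prime minus 5-prime signal of its group. These were 1.47 and 0.39 in shCPT-1 1 and 1.76 and 0.57 in scramble 3, and their part in the correlation was not tested. With 3 arrays per group such correlations cannot decide whether arrays were paired. With the replicate number as a block 2858 genes were higher and 2205 lower than in scramble. The direction turned for ABCC3 without the probe set types whose names end in _x_at or _s_at (-0.12, limma adjusted p = 0.189). It also turned for CAV1 with the mean of its probe sets (0.069, limma adjusted p = 0.559). Without those probe set types POLA2, ACAD9, ACOX3, NCOA1 and TNRC6A no longer passed. Each probe set tested alone gave 5044 higher and 3782 lower of 23565. Depth on arrays is signal over background, and genes above the array median on fewer than 3 arrays were not tested.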
